A study of Mus musculus with 5 samples.

Results

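Messenger RNA of 7 heat shock chaperone genes was followed across 5 mouse lymphoid cell cultures, each measured on 1 Affymetrix expression array. The 9 genes named for the group were Hspa4, Hspa8, Hsp90aa1, Hsp90ab1, Hsph1, Hspd1, Hspe1, Dnaja1 and Hsf1. Members were all probe sets annotated to 1 of these symbols and to no other gene. This gave 13 probe sets for 7 genes, of 12422 probe sets that are not the maker's controls. Hspa4 had 5 probe sets, Hsp90aa1 and Hspd1 had 2 each, and Hspa8, Hsph1, Hspe1 and Dnaja1 had 1 each. Hsp90ab1 and Hsf1 were not analysed here.

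Of the cultures, 4 were AxJ, a line of mouse plasma cells, the stage of B cell life that secretes antibody. Each was stably transfected and held in G418, the drug that selects for the vector. One carried empty vector, one overexpressed the RNA-binding protein hnRNP-H, and subclones B5 and D6 overexpressed its relative hnRNP-F. Overexpressing clones had been picked by western blot, and both hnRNP-F clones made less of the secreted form of heavy chain mRNA relative to the membrane form. The design treats empty vector, hnRNP-H and A20 all as controls. Here the AxJ controls are the first pair, and A20 is set against them. The study concerned how immunoglobulin heavy chain transcripts are processed and the elongation factor ELL2. The remaining culture was A20, labelled a memory B cell line, untransfected and grown without G418, so the effect of the drug and vector cannot be told apart from the cell line. All 5 were kept in log phase, and the labels name no heat shock. Each line was 1 clone or culture on 1 array, and p-values therefore reflect the scatter within the pair of AxJ controls and the pair of clones, which may be technical, with a prior drawn from all probe sets.

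Hsp70 proteins bind unfolded stretches of other proteins and let them go in a cycle driven by ATP. J proteins such as Dnaja1 deliver the substrate and start the ATP step, and Hsp110 proteins such as Hspa4 and Hsph1 exchange the nucleotide that ends it. Hsp90 takes over many signalling proteins and receptors at a late stage of folding, and in the mitochondrion Hspd1 (Hsp60) and its lid Hspe1 (Hsp10) form a closed chamber for imported proteins. Heat shock factors such as Hsf1 switch on many of these genes by binding inverted repeats of GAA, the heat shock element.

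Levels are quantile-normalised intensities. Each difference is one of log2(intensity + 6.53), a scale which understates the change of dim probe sets, and comes from limma fitted over all probe sets, with Benjamini-Hochberg adjustment. A filter kept probe sets whose highest value exceeded 21.8. It left 9109 probe sets, 12 of the members among them. The one lost was a dim Hsp90aa1 probe set (161869_i_at), which read 11.6 in A20, 17.3 and 14.1 in clones B5 and D6, and 19.0 and 12.1 in the empty vector and hnRNP-H controls.

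Summed over each list, where bright genes weigh most, lineage markers ran with the labelled cell types. Summed levels of 9 B cell markers were 1984 to 3973 in the AxJ lines and 10809 in A20, and those of 7 plasma cell markers were 14948 to 23077 in AxJ and 2620 in A20. By gene, 6 of the 7 plasma cell markers read lower in A20 than in every AxJ line. Sdc1 did not, at 30.6 in A20 within an AxJ range of 20.2 to 44.9. Of 6 T cell markers only Cd4 was kept, and it read at most 66.1. The 5 myeloid markers kept summed to 157 to 372, the 2 erythroid markers to 77.1 to 133, and the 5 stromal markers to 302 to 574. The Gapdh control probe sets compare signal at the 5' end of the transcript with that at the 3' end, and low ratios accompany degraded RNA or short labelling. The ratio was 0.181 for B5, 0.212 for empty vector, 0.384 for A20, 0.683 for D6 and 0.866 for hnRNP-H. For beta-actin it was 0.144, 0.247, 0.361, 0.445 and 0.587 in the same order. The part of RNA quality in the results was not tested. Each culture is a bulk sample, so fewer expressing cells and less RNA per cell cannot be told apart.

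No heat shock chaperone probe set passed the adjusted threshold of 0.05 in either tested comparison. Among all 9109 probe sets, 0.011 percent passed for the hnRNP-F clones and 5.88 percent for A20 (2.9 percent higher and 2.99 percent lower). Hspa4, with 5 probe sets, and Hsph1, with 1, are Hsp110 genes. They read higher in A20 than in every AxJ line on 5 of these 6, against 26 percent of all probe sets. All but that of Hsph1 are repeat readings of 1 gene, Hspa4, on 1 A20 array, so by gene they are 2 members. A further Hsp110 gene outside the group, Hspa4l, did not read above every AxJ line. It stood at 118 in A20, within an AxJ range of 108 to 136 (difference -0.10). On each of their 3 probe sets the chaperonin genes Hspd1 and Hspe1 read lower in A20 than the mean of the AxJ controls. Of all probe sets, 52.2 percent had a difference below 0. Hspa8 and Dnaja1 read much the same in A20 and the controls, within wide intervals.

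**Figure D1:**
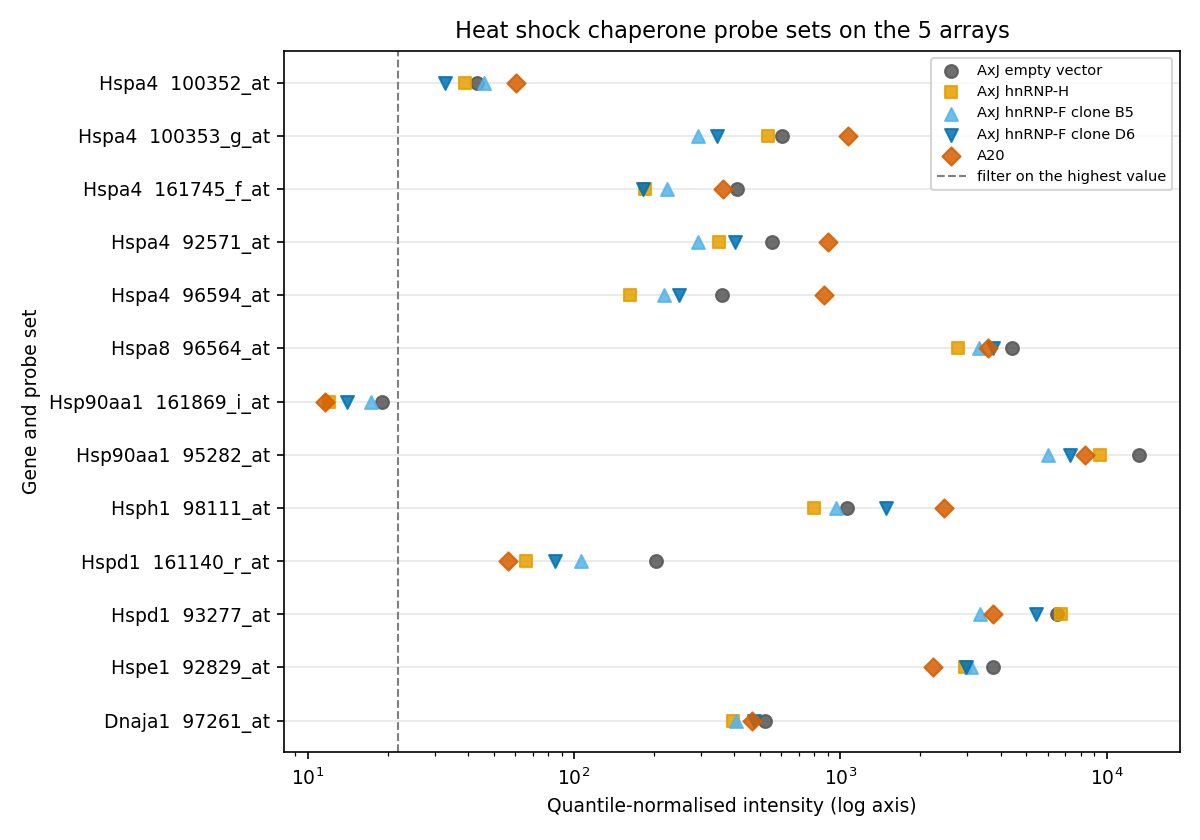
Quantile-normalised intensity (log axis) of the 13 member probe sets, 1 point per array. The dashed line is the filter at 21.8. For Hspa4 96594_at A20 lies at 866 against at most 359 in AxJ, and for Hsph1 at 2449 against at most 1490.

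Hspa4 encodes Apg-2, a member of the Hsp110 family, and lies on chromosome 11 at chr11:53259814-53300479 (RefSeq, GRCm38.p6). Its probe set 96594_at read 359 with empty vector and 162 with hnRNP-H, then 218 (B5), 247 (D6) and 866 (A20). A20 thus stood 2.42-fold above the highest AxJ line, while hnRNP-H was the lowest. A20 exceeded the controls by 1.81 (SE 0.46, 95% confidence interval 0.76 to 2.87, n = 1 against 2, limma adjusted p = 0.0601). This is close to the threshold, and the call turned with the processing. It passed under 6 of 14 alternatives, with adjusted p from 0.000678 to 0.190.

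The other Hspa4 probe sets gave smaller differences. Probe set 92571_at read 554 and 349 in the empty vector and hnRNP-H lines, 293 and 403 in clones B5 and D6, and 900.3 in A20. Probe set 100353_g_at read 603 and 536 in the controls (empty vector first), 293 and 343 in B5 and D6, and 1066 in A20. On both, A20 was the highest array and B5 the lowest, and A20 exceeded the controls by 1.02 (SE 0.39, limma adjusted p = 0.187) and 0.90 (SE 0.31, adjusted p = 0.153).

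The last pair of Hspa4 probe sets had no clear A20 difference. Probe set 100352_at was dim, at 43.1, 38.9, 46.0 and 32.9 in empty vector, hnRNP-H, B5 and D6 and 60.4 in A20, a difference of 0.50 (SE 0.49). Probe set 161745_f_at read 408 in empty vector, above A20 at 362, with 184, 224 and 182 in hnRNP-H, B5 and D6. Its A20 difference was 0.39 (SE 0.48), but -0.17 without the hnRNP-H array. All 5 probe sets of the gene had differences above 0 in the fit over 5 arrays, from 0.39 to 1.81. Where their probes lie along the transcript is not known here, and they share 1 gene, so they are not separate evidence.

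Hsph1 encodes Hsp105, another Hsp110 protein, and lies at chr5:149616843-149636498. It read 2449 in A20, 966 and 1490 in clones B5 and D6, and 1058 and 796 in the empty vector and hnRNP-H controls. A20 was the highest and clone D6 the highest of the AxJ lines. A20 exceeded the controls by 1.41 (SE 0.36, 95% confidence interval 0.59 to 2.23, limma adjusted p = 0.0583). The difference stayed between 1.16 and 1.61 over 14 alternatives, with adjusted p from 0.0333 to 0.210, and passed under 2 of them.

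The constitutive Hsp70 gene Hspa8 (Hsc70, chr9:40801276-40805202) read 4407 with empty vector and 2770 with hnRNP-H, then 3324 (B5), 3728 (D6) and 3589 (A20). A20 lay inside the AxJ range, and the controls were the highest and the lowest of the 5 arrays. The difference was 0.038 for A20 (95% confidence interval -0.73 to 0.81) and 0.011 for the hnRNP-F clones (-0.62 to 0.64), intervals that leave room for a change either way. Dnaja1, the J protein that works with it (chr4:40722468-40734965), read 522, 397, 406 and 476 in empty vector, hnRNP-H, B5 and D6, and 467 in A20. It had the narrowest range of the kept members, 0.39 on the log2 scale over the 5 arrays, against a median range of 1.18 over all probe sets. Its differences were 0.036 for A20 (-0.73 to 0.80) and -0.051 for the clones (-0.67 to 0.57).

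Hsp90aa1 encodes the Hsp90 alpha protein of the cytosol and lies at chr12:110691036-110696395. Its bright probe set 95282_at read 13232 and 9426 in the empty vector and hnRNP-H lines, 5999 and 7284 in clones B5 and D6, and 8272 in A20. Both hnRNP-F clones lay below both controls. They differed from them by -0.76 (SE 0.25, 95% confidence interval -1.34 to -0.18, 2 clones against 2 controls, unadjusted p = 0.0165, limma adjusted p = 0.790). A20 differed by -0.43 (SE 0.31, adjusted p = 0.525) and lay inside the AxJ range. As deposited, the same probe set read 14608 with empty vector, 7752 with hnRNP-H, 7084 and 7266 in B5 and D6 and 6294 in A20, which puts A20 below all 4 AxJ lines and the empty vector line far above the other 4 cultures.

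Hspd1 (Hsp60, chr1:55077833-55088243) and Hspe1 (Hsp10, chr1:55088148-55091317) are neighbours on opposite strands of chromosome 1. The bright Hspd1 probe set 93277_at read 3748 in A20, 3350 and 5423 in clones B5 and D6, and 6489 and 6721 in the empty vector and hnRNP-H controls. B5 and A20 were the low arrays. A20 differed from the controls by -0.82 (SE 0.34, limma adjusted p = 0.227), and the hnRNP-F clones by -0.63 (SE 0.27, adjusted p = 0.790). The latter was -0.28 without B5 and -0.98 without D6. The dimmer probe set 161140_r_at read 203 with empty vector and 66.1 with hnRNP-H, then 106 (B5), 84.7 (D6) and 56.4 (A20). It was highest in empty vector and lowest in A20, with a difference for A20 of -0.97 (SE 0.60, adjusted p = 0.450), which was -0.21 without empty vector and -1.74 without hnRNP-H.

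Hspe1 read 3728 and 2927 in the empty vector and hnRNP-H lines, 3088 and 2976 in clones B5 and D6, and 2228 in A20. A20 was the lowest array and the AxJ lines lay close together. The A20 difference was -0.57 (SE 0.29, 95% confidence interval -1.23 to 0.093, limma adjusted p = 0.338), and the difference of the clones -0.12 (-0.66 to 0.42). All 3 probe sets of the chaperonin pair were lower in A20 than in the controls, against 52.2 percent of all probe sets with a difference below 0. The 3 stayed lower under every one of the 14 alternatives, none past the threshold, but these alternatives reuse the same arrays.

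Start regions are shown for Hspe1, whose region overlaps most of one annotated for Hspd1, and for Hsph1 and Dnaja1. They were chosen because they hold inverted repeats of GAA, in Dnaja1 only 1 pair. Binding by heat shock factors was not tested. They are from RefSeq (GRCm38.p6), 250 bases before to 50 after a start site. Of the 9 genes, 5 matched the table, namely Hspa4, Hsph1, Hspd1, Hspe1 and Dnaja1. Capitals mark TTCNNGAA or GAANNTTC, each a pair of inverted GAA units and its own reverse complement, and longer runs where these overlap. Both strands were searched. Each is written 5' to 3' on the strand of its gene.
Hspe1, chr1:55087898-55088197, plus strand: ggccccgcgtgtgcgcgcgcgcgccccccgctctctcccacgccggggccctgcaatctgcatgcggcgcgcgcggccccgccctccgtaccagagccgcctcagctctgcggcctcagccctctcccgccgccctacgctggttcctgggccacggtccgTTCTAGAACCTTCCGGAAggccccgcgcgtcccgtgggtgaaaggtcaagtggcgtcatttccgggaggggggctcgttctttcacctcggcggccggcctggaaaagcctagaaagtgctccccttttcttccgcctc
Hsph1, chr5:149636287-149636586, minus strand: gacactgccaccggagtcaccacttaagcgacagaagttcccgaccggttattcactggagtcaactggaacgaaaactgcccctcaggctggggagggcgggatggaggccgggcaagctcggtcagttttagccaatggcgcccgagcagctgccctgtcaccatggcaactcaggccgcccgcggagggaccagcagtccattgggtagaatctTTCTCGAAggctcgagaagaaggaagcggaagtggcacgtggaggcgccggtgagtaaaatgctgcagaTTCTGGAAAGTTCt
Dnaja1, chr4:40722218-40722517, plus strand: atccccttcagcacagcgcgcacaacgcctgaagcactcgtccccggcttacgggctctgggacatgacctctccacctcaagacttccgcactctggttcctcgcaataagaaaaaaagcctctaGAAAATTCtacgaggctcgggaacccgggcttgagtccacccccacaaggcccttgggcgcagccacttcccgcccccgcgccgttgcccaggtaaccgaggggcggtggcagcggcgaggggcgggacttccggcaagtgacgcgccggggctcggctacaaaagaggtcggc

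The Hspe1 region held the run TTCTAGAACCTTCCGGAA, 4 alternating units with no mismatch, starting 89 bases before the start site. It covers chr1:55088059-55088076. One annotated Hspd1 start site has a window that shares 4 bases with that of Hspe1 and holds none of the patterns. Another lies 216 bases away on the minus strand, and its 300-base window shares 285 bases with that of Hspe1. Read from the Hspd1 side, the same bases are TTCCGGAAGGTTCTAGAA, starting 144 bases before that start site. A pattern of 4 such units (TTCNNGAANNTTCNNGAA) was found for 5 of 27025 genes with a start region in the table, or 0.0185 percent, namely Hspd1, Hspe1, Arpc2, Fam149a and Chordc1.

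The pattern of 3 units (TTCNNGAANNTTC, or GAANNTTCNNGAA on the other strand) was found for 179 genes, or 0.662 percent. Among the members it was found for Hspd1, Hspe1 and Hsph1, where TTCTGGAAAGTTC starts 36 bases after the start site shown. The Hsph1 region also held TTCTCGAA, 33 bases before that site. Dnaja1 held only GAAAATTC, 124 bases before the start site shown, and none of the patterns in the windows of its other annotated start sites. Hspa4 held none of the patterns in its window. The 8-letter patterns are common, at 9.6 percent of genes for TTCNNGAA and 9.04 percent for GAANNTTC. Of 73 genes of the other chaperone lists in the table, 2 held the 3-unit pattern, Dnajb6 and Chordc1.

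The first designed comparison set the hnRNP-F clones against the AxJ controls. Both clones lay below both controls for 3 of 12 member probe sets, namely Hspa4 100353_g_at, Hsp90aa1 95282_at and Hspd1 93277_at, against 19.4 percent of all probe sets (37.6 percent with either direction counted). No member had both clones above both controls, against 18.2 percent. These 3 probe sets were also the ones with an unadjusted p under 0.05, a share of 25 percent against 5.79 percent of all, and each had a limma adjusted p of 0.790. The Hspa4 probe set differed by -0.83 (SE 0.26, 95% confidence interval -1.41 to -0.24). The other Hspa4 probe sets had differences from -0.43 to -0.055, and of these 92571_at read 403 in D6 against 349 in hnRNP-H. Over the 12 probe sets the median was -0.20, with 10 below 0, against a median of 0.0051 and 49.4 percent below 0 over all probe sets. Hspa4 supplies 5 of the 12, here and in the other counts of kept member probe sets. Read once per gene, from the brightest probe set, the median of 7 genes was -0.12, against 0.011 over all genes. Of the 7, 2 lay above 0 and 5 below.

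Hsph1 was the member with the highest difference in the clones, at 0.38 (SE 0.29, limma adjusted p = 0.811). D6 stood at 1490 but B5 at 966, between the controls, and the difference was 0.69 without B5 and 0.073 without D6. Each clone was also set against the control of like Gapdh ratio, with 1 array a side and no test. B5 minus empty vector had a median of -0.77 over the 12 probe sets, with 11 below 0, against 49.7 percent of all probe sets. D6 minus hnRNP-H had a median of 0.11, with 7 above 0, against 50 percent of all.

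The empty vector line was the highest AxJ array for 9 of 12 member probe sets, against 33.6 percent of all, and for 10 as deposited (35.2 percent of all) and 8 under median scaling (28.6 percent). The hnRNP-H line, compared with it on 1 array a side and so without a test, read lower on 11 of 12 member probe sets, against 51.3 percent of all. The median difference was -0.45, against -0.023 over all probe sets. Hspd1 93277_at, at 0.050, was the one above 0. Differences reached -1.12 for Hspa4 161745_f_at, -1.11 for Hspa4 96594_at and -1.53 for the dim Hspd1 161140_r_at, and 3 of 12 were at least 2-fold, against 18.1 percent of all. The hnRNP-F comparison without the empty vector array turned 6 of the 12 differences from below to above 0.

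**Figure D2:**
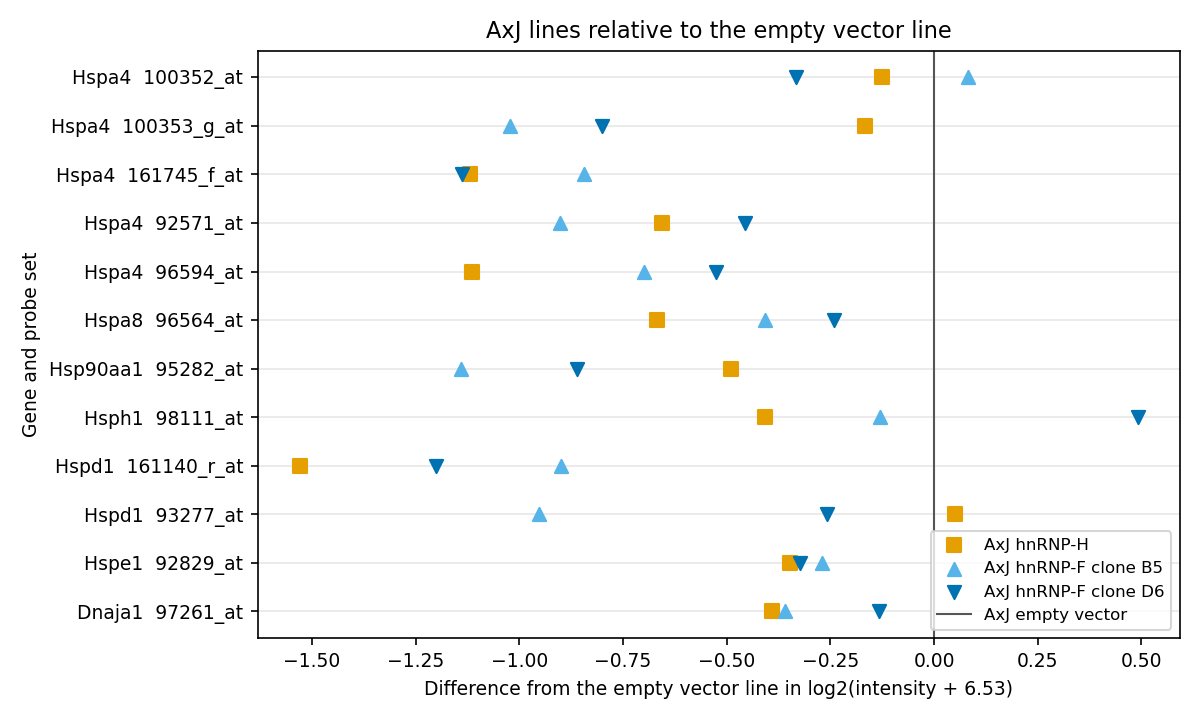
Difference of the hnRNP-H line and of clones B5 and D6 from the empty vector line (vertical line at 0) in log2(intensity + 6.53), for the 12 member probe sets kept. Most points lie below 0, and the points above it are D6 for Hsph1, B5 for Hspa4 100352_at and hnRNP-H for Hspd1 93277_at.

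Between the clones, D6 read higher than B5 on 8 of 12 member probe sets, against 50.2 percent of all, with a median difference of 0.20. The widest were Hspd1 93277_at at 0.69 and Hsph1 at 0.62, and Hspa4 100352_at lay at -0.41. None reached 2-fold, against 12 percent of all probe sets. There was 1 array per clone and no test.

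The second designed comparison set A20 against the AxJ controls. A20 lay above all 4 AxJ lines for 5 of 12 member probe sets, against 26 percent of all, and these were Hsph1 and 4 of the 5 Hspa4 probe sets. It lay below all 4 for 2, the dim Hspd1 probe set and Hspe1, against 28.9 percent of all, so 7 of 12 lay outside the AxJ range, against 54.9 percent. As deposited, 4 lay below, with Hsp90aa1 and the bright Hspd1 probe set added, against 33.4 percent of all. Under median scaling 7 lay above, with Hspa4 161745_f_at and Dnaja1 added, against 33 percent of all. The median A20 difference of all probe sets was -0.14 as deposited and 0.067 under median scaling. At an unadjusted p under 0.05 were 5 of 12, or 41.7 percent, against 19.3 percent of all. The 12 differences ran from -0.97 to 1.81 with a median of 0.22, against -0.038 over all probe sets. Hspa4 supplies 5 of the 12. With each gene read once, from its brightest probe set, the median of 7 genes was 0.036, with 4 above and 3 below 0, against -0.031 over all genes, and A20 lay above all 4 AxJ lines for 2 of 7.

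With A20 set against hnRNP-H and D6 alone, the AxJ arrays of higher Gapdh ratio, 5 member probe sets passed, all higher in A20. They were Hsph1, with a difference of 1.16 (limma adjusted p = 0.0333), and 4 Hspa4 probe sets, with differences from 0.96 to 2.08 and adjusted p from 0.000678 to 0.0195. This setting was chosen after the Gapdh ratios were seen, takes its spread only from those 2 arrays and called 1710 probe sets in all, against 536 with all arrays. A20 itself had a Gapdh ratio of 0.384, below both of them, so the arrays compared are not alike in this ratio. The setting also leaves out empty vector, the highest AxJ array for 9 of 12 member probe sets. The part of RNA quality in these differences was not tested. The comparison with the hnRNP-F clones uses the same control arrays as the main A20 comparison, so the 2 sets of differences are not independent.

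**Figure D3:**
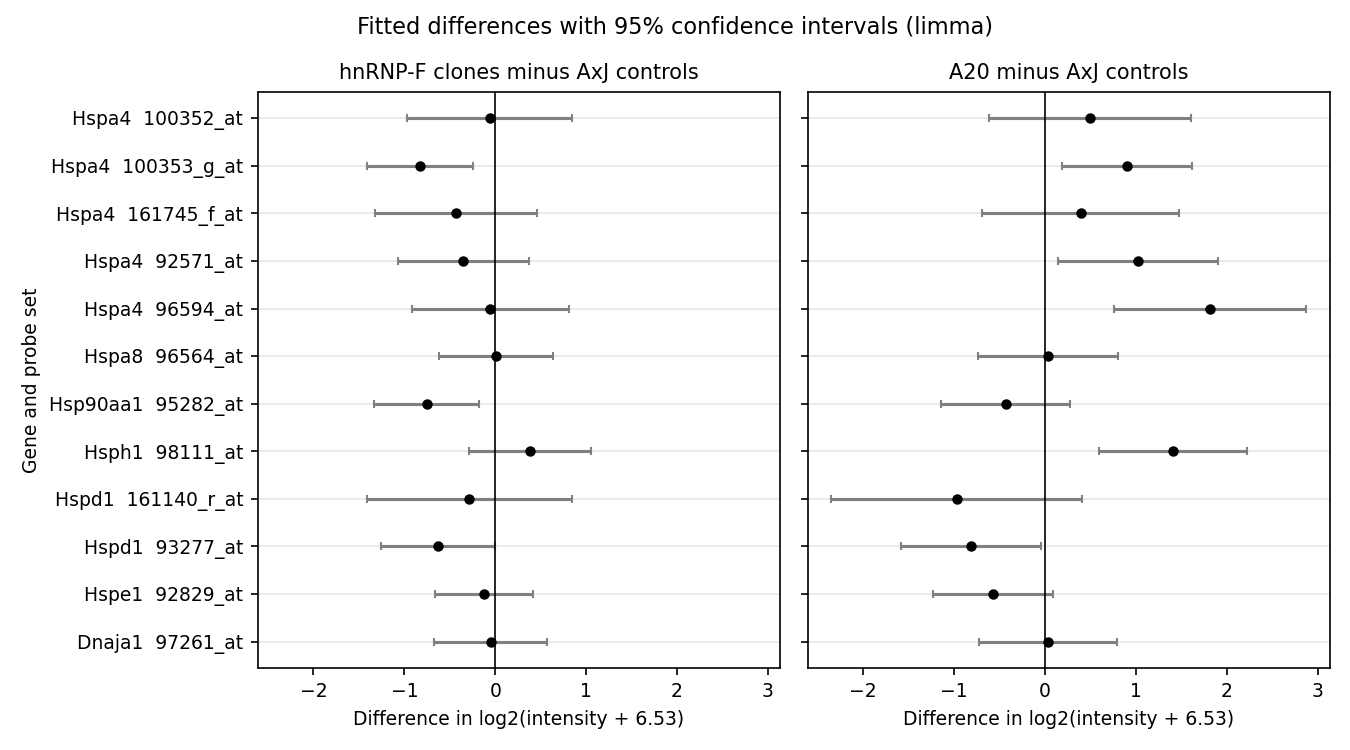
Fitted differences in log2(intensity + 6.53) with 95% confidence intervals from limma for the 12 member probe sets kept, for the hnRNP-F clones (left) and A20 (right), each minus the AxJ controls. The A20 differences of Hsph1 (1.41) and Hspa4 96594_at (1.81) lie farthest above 0, and no probe set passed after adjustment.

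Partners of these chaperones were followed through 9 further lists with 68 genes kept, each read from its brightest probe set. In the hnRNP-F clones none of the 68 passed, and the median difference was -0.0064. In A20, 3 rose and 3 fell, against 3.22 percent and 3.39 percent of 6639 genes. The largest difference per list in the clones was, among Hsp70 co-chaperones, Bag6 at 1.08 (SE 0.41; its other probe sets ran from 0.13 to 0.48). In the chaperonin list it was Vbp1, a prefoldin subunit, at -0.68 (SE 0.25). Both had a limma adjusted p of 0.790. For the other lists these were Hspa14 (0.81), Dnajc5 (0.74), Fkbp8 (0.84), Cryab (0.88), Clpx (-0.84), Hsbp1 (0.42) and Hsp90b1 (-0.48), none past the threshold. Several rest on 1 array. Clpx read 33.5 with empty vector and at most 6.81 elsewhere, so it passed the filter only through that array. Cryab was dim, at 11.5 to 45.9. Without empty vector the differences were -0.040 for Clpx, 0.27 for Cryab, 0.30 for Fkbp8 and 0.54 for Bag6, and without hnRNP-H they were -1.64, 1.49, 1.37 and 1.63. Hsbp1 was at 0.086 without D6 and 0.76 without B5.

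In A20, Fkbp4, an Hsp90 partner in steroid receptor folding, rose by 1.30 (SE 0.29, limma adjusted p = 0.0373). It was the one of 12 Hsp90 co-chaperones that passed (median of the list 0.34, with 7 above and 5 below 0). Ppp5c had a larger difference, 2.20 (SE 0.56), but was not past the threshold. Fkbp4 read 1439 and 1152 in the controls, 1656 and 1652 in B5 and D6, and 3188 in A20. This call held under 5 of 14 alternatives and was lost without hnRNP-H (adjusted p = 0.0526), without B5 (0.126) and without D6 (0.118), as deposited (0.0923) and with median scaling (0.051). Of 12 genes of the cytosolic chaperonin CCT and its helper prefoldin, 2 rose and 1 fell (median 0.029).

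Cct4, a CCT subunit, rose by 2.24 (SE 0.28, limma adjusted p = 0.00368). A20 read 4898, against 1096 and 971 in the controls, 984 in B5 and 1006 in D6. Cct7 rose by 1.58 (SE 0.34, adjusted p = 0.0326), from 804 and 1267 to 3022, but lost the call when empty vector (0.0603), B5 (0.099) or D6 (0.092) was left out, and as deposited (0.0515). None of the 6 other CCT subunits kept passed, with Tcp1 at 0.57, Cct5 at 0.52, Cct2 at 0.18, Cct3 at 0.11, Cct8 at -0.43 and Cct6a at -0.75. Pfdn2, a prefoldin subunit, fell by 2.34 (SE 0.31, adjusted p = 0.0048), from 703 and 689 to 132.

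The close relatives of the members in the endoplasmic reticulum lay low in A20. Hsp90b1, the Hsp90 of that compartment, fell by 3.07 (SE 0.27, limma adjusted p = 0.00067), while cytosolic Hsp90aa1 differed by -0.43. It read 9462 and 8158 in the controls, 6322 and 6247 in B5 and D6, and 1043 in A20. Hspa5 (BiP), its Hsp70, fell by 2.25 (SE 0.28, adjusted p = 0.00331), while Hspa8 differed by 0.038. It read 4165 and 4923 in the controls, 4072 and 3872 in the clones, and 945 in A20. All 5 genes of that list kept lay below every AxJ line, with a median of -1.44, and 2 passed. The difference between the compartments was not tested.

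None of the other lists had a gene past the threshold in A20 in the fit over 5 arrays. Of the genes named from them, Dnajc7, Phb2 and Hspa2 passed under at least 1 alternative. The median was 0.75 for 5 other cytosolic Hsp70 and Hsp110 genes, but it rests on dim readings. Of these, Hspa2 passed the filter only through A20 (29.9, against at most 7.71 in AxJ), so its difference is no evidence of a rise. Hspa1l, at the median, read 10.8 to 30.6 over the 5 arrays. Other medians were -0.41 for 9 J proteins, 0.13 for 7 Hsp70 co-chaperones and -0.34 for 4 small heat shock proteins. For 12 other mitochondrial chaperones and proteases the median was 0.46, against -0.031 over all genes. The widest in each were Hspa2, a dim probe set, at 1.82 (SE 0.97), Dnajc7 at 1.24 (SE 0.44), Bag6 at 1.12 (SE 0.51; its other probe sets ran from -1.61 to 0.43), Cryab at 0.93 (SE 0.63) and Phb2, a prohibitin of the inner mitochondrial membrane, at 1.20 (SE 0.33). Of the heat shock factor list, 2 genes were kept, Hsf4 and the factor-binding protein gene Hsbp1, and the larger difference was 0.22 for Hsbp1. Hspa1a, a heat-inducible Hsp70 gene, was dim in all 5 cultures, between 15.2 and 34.5.

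**Figure D4:**
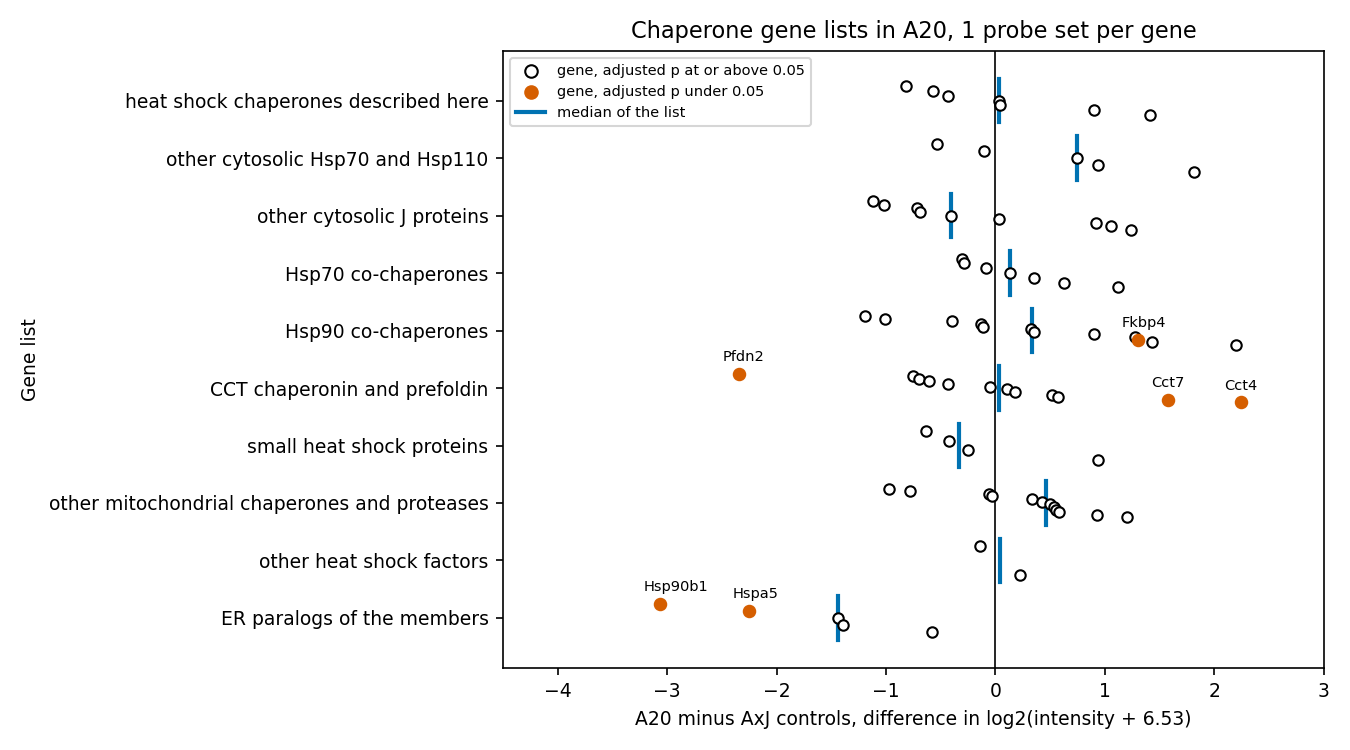
A20 minus the AxJ controls in log2(intensity + 6.53) for the members and 9 further chaperone lists, 1 point per gene (brightest probe set), with the median of each list as a bar. Filled points passed the adjusted threshold. They are Fkbp4, Cct4 and Cct7 above 0 and Pfdn2, Hspa5 and Hsp90b1 below 0.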

How the data were processed

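Each of 5 cultures was measured on 1 array (biotin-labelled polyA RNA, per the labels' protocols). The deposited values are linear intensities scaled by the authors. The deposited trimmed means (2 percent left out at each end) all lay at about 150. The software behind them is not given in the sources used here. The A20 median lay 11.7 percent below the mean of the medians, and arrays were quantile normalised after 66 control probe sets of 12488 were left out. Gene symbols follow the platform annotation (2016), brought up to date by gene ID. Of the remaining probe sets, 10833 had 1 symbol, 396 several and 1193 none.

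The pseudocount 6.53 and the filter 21.8 are the 20th and 40th percentiles of all deposited intensities. limma 3.58.1 in R 4.3.3 (lmFit, eBayes with an intensity trend) was fitted over all 5 arrays with 3 coefficients (clones, controls, A20), which left 2 residual degrees of freedom and a prior of 6.46. The spread of the AxJ lines was taken to hold for the lone A20 array, and the gap between the controls counts as spread. Tests were two-sided. The number of arrays limits the precision. The fit was tested on simulated data, with the spread of the fit and known changes added to 200 of 9109 probe sets. It called 16 percent of 2-fold changes for the clones and 10 percent for A20, so most were missed. For 4-fold changes it called 76 and 62 percent. No p adjusted over the members alone is given.

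All members were named whatever their values. From each other list up to 3 genes past the threshold were named, otherwise the 1 with the largest difference, each from its brightest probe set. Other genes given with values (Hspa4l, Hspa1a, Hspa1l, Ppp5c, Sdc1 and the uncalled CCT subunits) were chosen after their values were seen. Members and lists were chosen with earlier results of these data known. Alternatives covered the pseudocount, filter, scaling, spread model, arrays in the fit and each AxJ array left out.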

Additional observations from a re-analysis of the deposited data

How the results depend on the processing

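No member passed for the hnRNP-F clones under 13 alternatives. For A20 the count of members past the threshold, 0 in the reported fit, was 2 with the filter at the 60th percentile, 1 with the authors' scaling, 1 with median scaling, 1 against all 4 AxJ arrays as one group, 5 against hnRNP-H and D6 alone (added after seeing the data), and between 0 and 1 with each AxJ array left out, the 1 without empty vector. The gene was Hspa4 (96594_at) in each, with Hsph1 added at the 60th percentile and more Hspa4 probe sets and Hsph1 in the last. Of all probe sets, 536 passed for A20, against 311 with no filter, 145 with no intensity trend, 250 with only A20 and the controls, 247 without B5, 260 without D6 and 1710 against hnRNP-H and D6. For the clones 1 passed, against 0 with no filter, with no trend and without B5, and 3 without D6. The cause was not tested.

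With each AxJ array left out in turn, differences for the clones that turned sign ran from -0.27 to 0.15 for Hspa4 100352_at, -0.99 to 0.13 for 161745_f_at, -0.61 to 0.50 for 96594_at, -0.32 to 0.34 for Hspa8, -1.05 to 0.48 for Hspd1 161140_r_at and -0.25 to 0.14 for Dnaja1. Hspe1 turned (0.0505) without empty vector. Without empty vector Hspa4 100352_at was at 0.000703, and without D6 Hspa8 was at -0.072. Without B5, Hspa4 96594_at was at 0.032 and Dnaja1 at 0.061. For A20 the ranges were -0.17 to 0.95 for Hspa4 161745_f_at, -0.30 to 0.37 for Hspa8 and -0.16 to 0.23 for Dnaja1, each turned without hnRNP-H. They also turned with the authors' scaling for Hspa8 (-0.22), and against hnRNP-H and D6 for Hsbp1 (-0.20). The A20 calls of Cct4, Pfdn2, Hspa5, Cct7 and Fkbp4 were lost with no intensity trend (adjusted p from 0.0614 to 0.182), where Hsp90b1 held, and those of Cct7 and Fkbp4 also with no filter (0.072 and 0.0709). Median member differences of hnRNP-H minus empty vector were -0.449 and -0.44 with pseudocounts 1 and 32, -0.57 with the authors' scaling and -0.42 with median scaling, and those of D6 minus B5 were 0.20, 0.18, 0.15 and 0.17. No paired analysis was possible because the labels give no replicate numbers that groups share. A block of AxJ arrays of like Gapdh ratio, added after seeing the data, is no such pairing, and under it no member passed for the clones. With a lone array on one side the spread rests on the other groups.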

Other observations

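Profiles most like those of the 3 member probe sets with the widest range were sought over the 5 arrays by the mean absolute difference of centred log2 values. Nearest to Hspa4 96594_at were Eml5, at 0.088, and Enah, an actin regulator, at 0.13. Eml5 read 284 in A20, 64.8 and 65.2 in clones B5 and D6, and 111 and 55.1 in the empty vector and hnRNP-H controls. Nearest to Hspa4 100353_g_at were Syt2, dim at 5.98 to 36.1, at 0.044, and Smarca5, a chromatin remodelling ATPase, at 0.063. Smarca5 read 130.2 and 109 in the controls, 68.9 and 68.7 in the clones and 236 in A20. Nearest to Hspd1 161140_r_at were Tead3, dim at 3.81 to 30.1, at 0.031, and Immt, a protein of the mitochondrial inner membrane, at 0.062. Immt read 77.0 with empty vector and 26.0 with hnRNP-H, then 42.4 (B5), 33.7 (D6) and 19.1 (A20). These came from 9109 candidates over 5 arrays, and no test was made.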
